A study of Homo sapiens with 18 samples.

Results

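The measurement described here is the difference between 2 cell lines in their RNA response to 48 h of hypoxia. HepG2, a human hepatoma line that keeps much of the secretory and metabolic program of hepatocytes, was compared with APOA4-KO, a HepG2 line in which the gene for apolipoprotein A-IV had been edited. For every gene, the change from 0 h to 48 h was taken in each line, and the change in HepG2 was subtracted from the change in APOA4-KO. A positive difference therefore means that a gene ended higher, relative to its own 0 h level, in APOA4-KO than in HepG2. The comparison uses 12 of the 18 RNA-seq libraries of these lines, chosen by the line and time in their labels, with 3 libraries in each of 4 groups.

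The groups were unedited HepG2 (genotype WT) at 0 h without treatment, the same cells after 48 h of hypoxia, APOA4-KO cells at 0 h without treatment, and APOA4-KO cells after 48 h of hypoxia. The remaining 6 libraries, of both lines at 24 h, entered the shared estimate of the spread and are given beside the results where they help. Hypoxia was 1% oxygen, according to the methods of the study, and the editing used 2 guide RNAs directed at exons 1 to 3 of APOA4, followed by selection of single colonies with mutations in both alleles. How many colonies make up the sequenced line is not given in the sources used here, so the edit and any other property of the selected cells cannot be told apart. No library was kept in normal oxygen for 48 h, so hypoxia and time in culture cannot be told apart either.

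As background, cells short of oxygen stabilise the hypoxia-inducible factors (HIFs), which bind genes for glycolysis, blood vessel growth and oxygen sensing and raise their transcription. Hepatocytes also produce glucose for the rest of the body, and the genes for that pathway answer to hormones and nutrients. Long hypoxia is known to slow cell division and to lower the output of mitochondria, while immediate early genes, such as FOS and EGR1, answer to growth factors and stress without new protein synthesis.

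The 12 libraries held 76778865 to 91604947 counted fragments or reads each, and all were used. Of 61806 genes in the table, 28200 had no count in any library and 19743 passed the filter on low counts and were tested. The markers of hepatocytes and hepatoma summed to between 63875 and 81158 CPM (counts-per-million) in all 12 libraries, whereas the 6 endothelial markers summed to at most 17.5 and the 8 fibroblast or stellate markers to at most 167. The 8 blood cell markers summed to 1101 to 1354 CPM in HepG2 at 0 h and to 2734 to 2845 in APOA4-KO at 48 h; most of this was LYZ, the gene for lysozyme. The defining leukocyte gene PTPRC stayed at or below a group mean of 3.99 CPM, MARCO was at 0 in all 12 libraries, but CD68, a macrophage marker that other cells also express, was called higher, with group means of 36.8 and 42.3 CPM in HepG2 at 0 h and 48 h and of 28.7 and 69.3 in APOA4-KO. LUM, under 1.2 CPM in every group mean, was called higher as well, and the part of such markers in the results was not tested. Nothing in the labels says that the 3 libraries of a group came from separate cultures, so the p-values measure only the spread between these libraries, which may be technical.

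The edited gene was examined first. APOA4 (chr11:116820700-116823306, GRCh38, GENCODE release 29, protein coding) encodes an apolipoprotein that is carried on chylomicrons and high-density lipoprotein. Its RNA was read at 8.95, 9.67 and 8.46 CPM in the 3 HepG2 libraries at 0 h and at 18.9, 19.9 and 21.7 at 48 h. In APOA4-KO it was read at 8.35, 7.80 and 6.99 CPM at 0 h and at 7.65, 8.54 and 8.44 at 48 h. The HepG2 libraries at 48 h lay above all 9 others, and the 0 h and 48 h libraries of APOA4-KO overlapped. The rise in HepG2 was 1.16 on the log2 scale, the change in APOA4-KO was 0.09, and the difference of -1.07 ± 0.11 (SE) passed the test (adjusted p = 3.97e-07). APOA4 RNA was thus present in the edited line at a level near that of HepG2 at 0 h (log2 -0.23 apart), so its count does not by itself show the edit, and 43.1% of its exon bases are shared with another annotated gene. EPO, the gene for erythropoietin and a classical marker of hypoxia, was read at 5.06, 4.55 and 6.18 CPM in HepG2 at 0 h and 13.1, 13.3 and 13.8 at 48 h, and went from 8.72, 8.33 and 8.70 to 13.5, 13.6 and 12.001 in APOA4-KO. It rose in both lines without overlap, by 1.35 in HepG2 and 0.60 in APOA4-KO, and its difference of -0.74 ± 0.14 (SE) had an adjusted p of 2.29e-04 but was under the size limit used below. At 24 h EPO stood at 5.33, 5.77 and 6.35 CPM in HepG2 and at 13.8, 15.0 and 14.5 in APOA4-KO.

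A gene was called when its difference was at least 1 on the log2 scale, that is, when the ratio of 48 h to 0 h at least doubled or halved between the lines, and its adjusted p was below 0.05 in edgeR's quasi-likelihood test with Benjamini-Hochberg adjustment over the 19743 genes. By this rule 1464 genes were called, 7.42% of those tested, of which 677 (3.43%) had a higher and 787 (3.99%) a lower response in APOA4-KO. With the adjusted p alone, 7178 genes (36.4%) passed, so most of the differences between the responses were smaller than the limit. The call was kept in each of 12 fits that left out 1 library for 968 of the 1464 genes. Scaling by library size alone gave 464 higher and 1206 lower, so that the share of higher genes among those called went from 46.2% to 27.8%; the median difference of all genes moved from -0.04 to -0.21 with that scaling. Values below come from the TMM scaling, and a list's median should be read against the median of -0.04 over all genes. Where a gene is said to differ by a value, the value is the log2 difference of the responses, APOA4-KO minus HepG2.

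The response of APOA4-KO was the broader one. By the same limits 2407 genes (12.2%) changed from 0 h to 48 h in APOA4-KO, 1055 up (5.34%) and 1352 down (6.85%), against 430 genes (2.18%) in HepG2, 279 up (1.41%) and 151 down (0.765%). At an adjusted p below 0.05 without the size limit, 49.9% of the genes changed in APOA4-KO and 27.7% in HepG2. The standard deviation of the log2 change over all genes was 1.26 in APOA4-KO and 0.97 in HepG2. Across the 19743 genes, the changes in the 2 lines had a Pearson correlation of 0.20, given as a description only, since genes of 1 set of libraries are not independent and low counts add noise.

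The 2 within-line changes share no library, so one line can be read over the genes that the other line chose. The 279 genes that rose in HepG2 had a median rise of 1.57 there and of 1.42 in APOA4-KO, and 178 of them also passed both limits upward in APOA4-KO. The 151 genes that fell in HepG2 had a median of -1.69 there and -0.997 in APOA4-KO. Read the other way, the 1055 genes that rose in APOA4-KO, at a median of 1.47, had a median of 0.37 in HepG2, and the 1352 that fell, at a median of -1.497, had a median of -0.28. A median over genes chosen for their size in a line is inflated in that line, which applies to both readings.

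**Figure D1:**
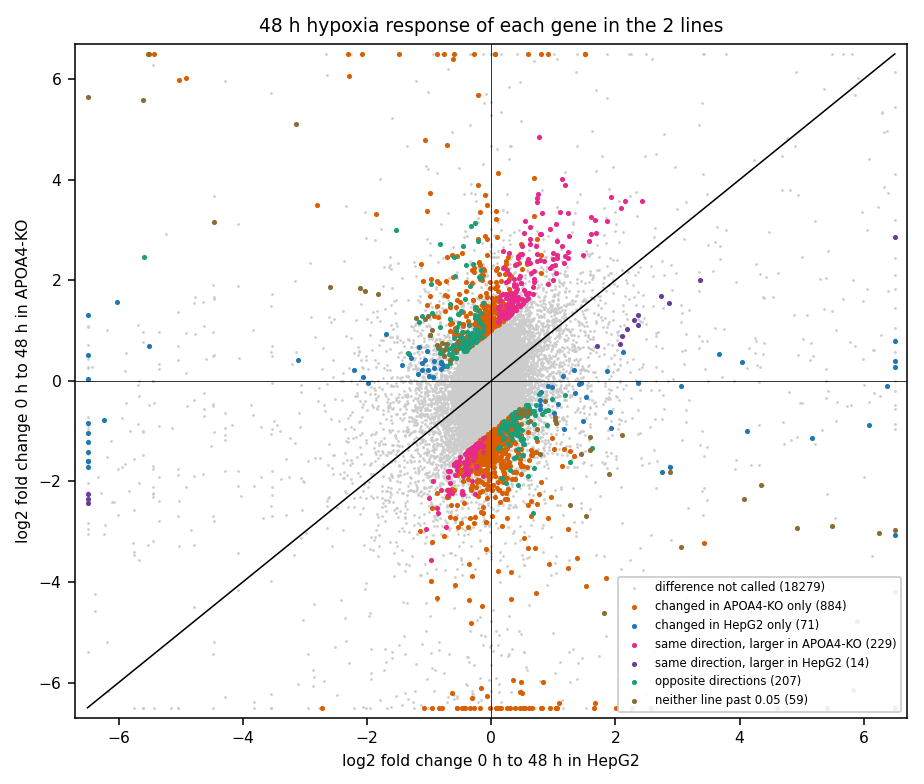
Each point is 1 of 19743 tested genes, with its log2 fold change from 0 h to 48 h in HepG2 on the horizontal axis and in APOA4-KO on the vertical axis; colours mark the classes of called genes, the diagonal marks equal responses, and 181 genes beyond 6.5 on either axis are drawn at 6.5. Most coloured points lie along the vertical axis, with 884 genes changed in APOA4-KO only and 71 in HepG2 only.

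The called genes were sorted by whether each line's own change had an adjusted p below 0.05. Most of them, 884 of 1464 (60.4%), changed in APOA4-KO only, 342 with a higher and 542 with a lower response. A p that misses the threshold in HepG2 does not show that a gene stayed unaltered, but for 630 of the 884 the 95% interval of the HepG2 change lay within 1 log2 unit of 0. Both lines changed in the same direction in 243 genes, with the larger change in APOA4-KO in 229, 151 of them higher and 78 lower. The other 14 changed more in HepG2, and 71 changed in HepG2 only, 26 of these with an interval within 1 log2 unit of 0 in APOA4-KO. Opposite changes were found for 207 genes, of which 119 went up in APOA4-KO and down in HepG2 and 88 the other way, but in 7 alone did both lines move by at least 1. The remaining 59 genes had neither line past 0.05. The call was kept in all 12 fits with a library left out for 547 of the 884, 28 of the 71, 200 of the 229 and 178 of the 207.

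The levels of the lines at each time were compared as well. Among the 677 genes with a higher response, 313 differed between the lines at 48 h but not at 0 h (adjusted p below 0.05), 161 differed at both times in the same direction, 134 at both times in opposite directions and 51 at 0 h only. Of the 787 with a lower response, 503 differed at 48 h only, 99 at both times in the same direction, 82 at both in opposite directions and 76 at 0 h only. By kind of gene, 7.80% of protein-coding, 6.90% of long noncoding and 5.47% of other genes were called.

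PCK1 had the largest positive difference among genes that met the limits for naming, and it was the clearest gene with opposite responses. It encodes the cytosolic phosphoenolpyruvate carboxykinase, which commits carbon to glucose synthesis (chr20:57561080-57568112, GRCh38). In HepG2 its RNA was at 2.44, 2.96 and 2.34 CPM at 0 h and at 0.553, 0.866 and 1.26 at 48 h. In APOA4-KO it was at 15.9, 19.9 and 16.3 at 0 h and at 133, 139 and 143 at 48 h. Every APOA4-KO library lay above every HepG2 library, the 48 h libraries of HepG2 were below its 0 h libraries, and those of APOA4-KO were above theirs. The changes of -1.54 in HepG2 and 2.99 in APOA4-KO gave a difference of 4.53 ± 0.22 (SE) (adjusted p = 6.71e-12).

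G6PC1, the catalytic subunit of glucose-6-phosphatase, which releases glucose from the hepatocyte, had the same shape. HepG2 gave 10.1, 11.2 and 12.6 CPM at 0 h and 6.56, 7.12 and 7.65 at 48 h, and APOA4-KO went from 84.7, 91.8 and 87.9 to 245, 255 and 260.3. The changes of -0.67 and 1.52 on the log2 scale came without overlap of libraries in either line (difference 2.19 ± 0.09 (SE), adjusted p = 5.31e-13). At 24 h G6PC1 stood at 78.1, 74.9 and 75.9 CPM in HepG2 and 157, 157 and 155 in APOA4-KO, so the HepG2 level rose and then fell below its start, and the difference of the 24 h responses was -1.93.

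Of the 22 tested genes of gluconeogenesis and the fasting response, 6 were called higher and 1 lower (31.8%, beside 7.42% of all genes), with a median difference of 0.38. With library size alone 3 were called higher and 1 lower. The transcriptional activators of the pathway were among those higher. FOXO1, the insulin-restrained forkhead factor, rose by 1.61 in APOA4-KO and 0.31 in HepG2, and PPARGC1A, a coactivator of gluconeogenic and mitochondrial genes, by 1.08 in APOA4-KO, while its HepG2 value was -0.02. In APOA4-KO the PPARGC1A libraries went from 19.96, 21.1 and 22.5 CPM to 44.7, 46.5 and 43.7, with values between 12.9 and 13.97 in all 6 HepG2 libraries; its difference of 1.11 was 0.93 and not called with library size alone. FOXO3, a relative of FOXO1, was also called higher, at 1.08. ARG1, the arginase of the urea cycle, was the member called lower, with a rise of 2.104 in HepG2 from under 0.5 CPM and of 0.89 in APOA4-KO, but its difference was -0.998 and no longer called without the first HepG2 library at 0 h (-1.21 with it).

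Of the immediate early genes 19 rose past the limits in APOA4-KO, and the list had the highest share called higher of the 22 gene lists. All 31 listed genes were tested, 19 were called higher for the difference (61.3%), and the median change was 1.97 in APOA4-KO and -0.19 in HepG2, a median difference of 1.84. By class, 8 of the 19 changed in APOA4-KO only, 5 in both lines with the larger rise in APOA4-KO and 6 in opposite directions. At an adjusted p below 0.05, 21 of the 31 rose and 2 fell in APOA4-KO, where 49.9% of all genes changed in either direction. In HepG2 6 rose and 10 fell, beside 27.7% of all genes in either direction.

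FOS, a subunit of the AP-1 transcription factor, was at 0.878, 1.06 and 0.783 CPM in HepG2 at 0 h, 0.872, 1.44 and 2.095 at 48 h, and went from 1.03, 1.43 and 1.17 to 20.3, 19.04 and 20.7 in APOA4-KO. The 48 h libraries of APOA4-KO stood far above all others, the HepG2 groups overlapped, and the difference was 3.35 ± 0.37 (SE) (adjusted p = 6.13e-07). CCN1, a secreted matrix protein induced by growth factors and by the YAP coactivator, went from 22.7, 24.3 and 23.4 to 210.0, 207 and 199.9 CPM in APOA4-KO. In HepG2 it went from 23.1, 23.98 and 24.97 to 20.1, 19.9 and 20.2, a small change of -0.26 without overlap, and the difference was 3.39 ± 0.08 (SE) (adjusted p = 4.52e-16). At 24 h CCN1 stood at 63.5, 68.0 and 65.0 CPM in HepG2, above the 37.1, 30.5 and 34.3 in APOA4-KO. The difference of its 24 h responses was -0.91, so its HepG2 level rose and then fell below its start. DUSP1, a phosphatase that switches off MAP kinases, rose from 18.8, 15.03 and 18.7 to 169, 168 and 154 CPM in APOA4-KO, whereas its HepG2 libraries lay between 17.7 and 20.3 at 0 h and 48 h. At 24 h DUSP1 stood at 35.4, 33.6 and 33.5 CPM in HepG2, above its 0 h and 48 h libraries in that line. In APOA4-KO its 24 h libraries were higher still, at 43.1, 44.6 and 50.2.

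FOSB and DUSP5, a further AP-1 subunit and an ERK phosphatase, had differences of 3.14 and 3.07 at lower levels, with APOA4-KO means of 6.38 and 12.4 CPM at 48 h. EGR1, an early zinc finger factor, differed by 2.55, JUN 2.13 and MYC 1.32. IER3, a regulator of survival after stress, rose from 129, 126 and 130.4 to 220.1, 211 and 208 CPM in HepG2 and from 115, 116 and 112 to 1410.2, 1459.5 and 1414 in APOA4-KO, a difference of 2.91, though 26.5% of its exon bases are shared with another gene. Both lines rose without overlap of libraries. At 24 h, in values that share the 0 h libraries with the 48 h ones, the median difference of the list was 0.12 and 4 genes were called.

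**Figure D2:**
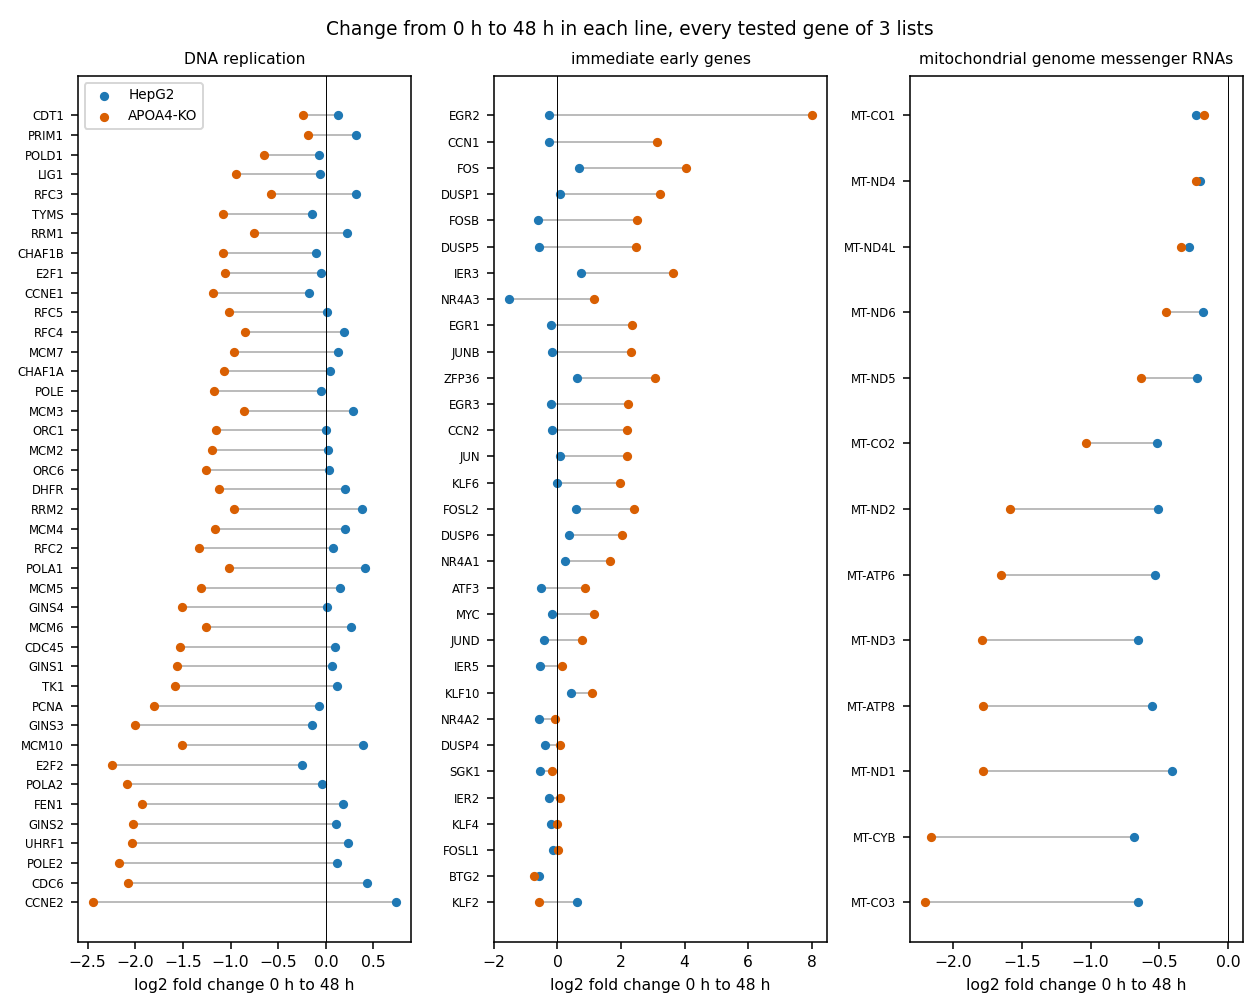
For every tested gene of DNA replication (41), the immediate early genes (31) and the mitochondrial messenger RNAs (13), the log2 fold change from 0 h to 48 h in HepG2 (blue) and APOA4-KO (orange) is joined by a line, with genes ordered by the difference. Replication genes lie near 0 in HepG2 and below it in APOA4-KO, 26 of the 31 immediate early genes lie above it in APOA4-KO, and the mitochondrial genes fell in both lines; EGR2, at the top of the middle panel, was below 1 CPM.

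Genes of the interleukin-6 and STAT3 response, which in hepatocytes drives the acute phase proteins, gave 6 called higher and 1 lower of 25 tested (28.0%). The median difference of 0.44 was 0.14 without the first APOA4-KO library at 48 h, 0.18 without the first HepG2 library at 48 h, 0.27 with library size alone and 0.04 with FPKM. SOCS3, the feedback inhibitor of this pathway, was at 2.53, 1.61 and 1.34 CPM in HepG2 at 0 h and 1.66, 1.46 and 1.599 at 48 h. The edited line went from 1.82, 1.601 and 1.67 to 25.4, 23.8 and 26.5, so the 48 h libraries of that line stood alone, with a difference of 4.11 ± 0.24 (SE) (adjusted p = 1.37e-10). PIM1, a survival kinase induced by STAT factors, went from 53.7, 53.2 and 53.8 down to 41.8, 43.0 and 43.6 CPM in HepG2 and from 77.3, 78.5 and 77.7 up to 659, 662 and 652 in APOA4-KO. Neither line's groups overlapped, and the opposite changes of -0.32 and 3.08 differed by 3.40 ± 0.04 (SE) (adjusted p = 1.01e-19).

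HAMP, the gene of the iron hormone hepcidin, rose from 2.17, 2.80 and 2.93 to 19.7, 19.7 and 17.8 CPM in APOA4-KO, with a HepG2 change of 0.09 and a difference of 2.77. CEBPD, an acute phase transcription factor, differed by 2.09. IL6R, the receptor chain that binds the cytokine, differed by 1.23, and SAA4, an apolipoprotein of the serum amyloid family, was the member called lower at -1.09, with 65.5% of its exon bases shared. CEBPB, a relative of CEBPD, had log2 changes of -1.18 in HepG2 and 0.14 in APOA4-KO, but the APOA4-KO libraries overlapped, at 15.9, 26.2 and 27.4 CPM and then 37.6, 21.3 and 17.6, and without the first APOA4-KO library at 48 h the difference went from 1.32 to 0.93 and was not called.

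Of the genes of DNA replication 31 fell past the limits in APOA4-KO, and the list had the highest share called of the 22 lists. All 41 listed genes were tested, and 33 were called lower for the difference (80.5%). All 41 had a lower response in APOA4-KO at an adjusted p below 0.05, as did 3513 of the 19743 genes. The median change was -1.18 in APOA4-KO and 0.10 in HepG2, a difference of -1.34 beside the -0.04 of all genes. At an adjusted p below 0.05, 40 of the 41 genes fell in APOA4-KO and 0 rose, where 49.9% of all genes changed in either direction. In HepG2 15 rose and 2 fell, beside 27.7% of all genes in either direction. By class 20 of the 33 changed in APOA4-KO only, 12 in opposite directions and 1 in both lines. Fewer dividing cells and less of these RNAs per cell cannot be told apart in bulk libraries.

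CDC6, which loads the replicative helicase at origins, was at 38.02, 35.1 and 37.1 CPM in HepG2 at 0 h and 50.3, 48.9 and 49.4 at 48 h. The edited line had 40.1, 40.4 and 36.1 and then 10.04, 8.66 and 8.997. The lines overlapped at 0 h and stood apart at 48 h on both sides of their start, with a difference of -2.51 ± 0.08 (SE) (adjusted p = 2.57e-14). UHRF1, which keeps DNA methylation through replication, went from 58.6, 58.2 and 59.9 to 70.0, 66.4 and 71.2 CPM in HepG2 and from 67.9, 68.4 and 60.9 to 14.8, 17.6 and 15.6 in APOA4-KO, again without overlap between times in either line (difference -2.27 ± 0.08 (SE), adjusted p = 1.51e-13).

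The helicase subunits moved together: MCM2 to MCM7 had differences from -1.53 (MCM6) to -1.09 (MCM7), where 23.6% of the exon bases of MCM2 are shared with another gene. GINS2, part of the same helicase, differed by -2.12, PCNA, the sliding clamp of the polymerases, -1.73, and FEN1, which trims Okazaki fragments, -2.11. Among the polymerases POLE2 differed by -2.30 and POLA1 -1.43, and among the makers of nucleotides TK1, a thymidine kinase, differed by -1.70 and RRM2, a ribonucleotide reductase subunit, -1.34. CCNE2, a cyclin of S phase entry with 37.1% of its exon bases shared, differed by -3.18 at levels under 3 CPM. E2F2, a regulator that activates many of these genes, differed by -1.99.

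Genes outside the lists with the largest falls included others that act in S phase. FAM111B, a protease-like gene expressed during S phase, went from 5.19, 6.79 and 5.27 to 9.59, 8.09 and 9.96 CPM in HepG2 and from 7.27, 7.90 and 7.46 to 1.55, 1.03 and 1.06 in APOA4-KO, moving without overlap in opposite directions (difference -3.32 ± 0.25 (SE), adjusted p = 5.15e-09). E2F7, a repressor in the E2F family, moved in opposite directions as well, with 0.59 in HepG2 and -1.89 in APOA4-KO. PIK3R3, a regulatory subunit of phosphoinositide 3-kinase, fell in both lines, with -0.97 in HepG2 and -3.57 in APOA4-KO, where its 48 h libraries were at 0.389, 0.369 and 0.389 CPM.

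Mitosis genes had a smaller median difference. Of 38 tested, 2 were called, both lower (5.26%). At the adjusted p alone 32 had a lower response, as did 3513 of the 19743 genes. The median difference was -0.58, with -0.39 in APOA4-KO and 0.22 in HepG2. KIF11, the motor that separates spindle poles, had log2 changes of 0.43 in HepG2 and -0.72 in APOA4-KO. CENPE, a kinetochore motor, differed by -1.04, which became -0.97 and uncalled without the third APOA4-KO library at 0 h and -0.98 without the third HepG2 library at 48 h. With library size alone 10 of the 38 were called lower. For the 24 h response, on the same 0 h libraries, the median difference was 0.26 for mitosis and -0.27 for replication.

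Sequences upstream of the genes are shown so that elements known to act at such promoters can be read beside the values. RefSeq windows of 250 bases before the annotated start (GRCh38.p14) were found for 12825 of the tested genes, among them 36 of the 41 replication genes. The E2F element, searched as TTTGGCGC or TTTCGCGC on both strands, was in 7 of the 36 (19.4%) and in 1.61% of all 12825 windows. The CCAAT box, searched as CCAAT on both strands, was in 20 of the 36 (55.6%) and in 34.4% of all. In the mitosis list, 23 of 31 windows (74.2%) held the CCAAT box and 0 held the E2F element. These are matches of letters and not sites shown to be bound, and the windows below were chosen for their matches after the values were seen. The first 3 have the E2F element in capitals; in MCM6 the capitals hold 4 matches, since each run reads as the element on both strands, and in POLA1 they hold the element as read on the opposite strand.
MCM6, chr2:135876444-135876693, minus strand: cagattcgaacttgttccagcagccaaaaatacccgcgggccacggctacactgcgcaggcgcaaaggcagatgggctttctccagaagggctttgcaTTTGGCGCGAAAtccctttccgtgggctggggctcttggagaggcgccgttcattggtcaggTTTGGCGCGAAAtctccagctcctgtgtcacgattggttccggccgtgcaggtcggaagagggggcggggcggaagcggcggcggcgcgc
MCM7, chr7:100101398-100101647, minus strand: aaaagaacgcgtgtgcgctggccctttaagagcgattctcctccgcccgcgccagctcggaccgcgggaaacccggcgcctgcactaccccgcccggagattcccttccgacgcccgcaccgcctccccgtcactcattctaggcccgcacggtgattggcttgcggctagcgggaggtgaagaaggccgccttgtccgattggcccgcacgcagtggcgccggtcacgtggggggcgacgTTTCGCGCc
POLA1, chrX:24693668-24693917, plus strand: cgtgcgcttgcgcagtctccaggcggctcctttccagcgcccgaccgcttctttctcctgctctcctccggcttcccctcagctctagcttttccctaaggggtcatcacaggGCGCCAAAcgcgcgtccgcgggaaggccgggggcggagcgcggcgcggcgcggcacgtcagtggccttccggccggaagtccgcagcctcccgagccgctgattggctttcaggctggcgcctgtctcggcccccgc

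MCM6 had a difference of -1.53, MCM7 of -1.09 and POLA1, the catalytic subunit of the priming polymerase, of -1.43. Among the immediate early genes 22 of 31 had a window, and 1 of the 22 (4.55%) held the CArG box, the element bound by serum response factor, as did 1.08% of all windows. That window was of EGR1, with a difference of 2.55, and it held 2 matches, given in capitals below, while the window of FOS held none. Of the 23 other HIF target genes with a window, 19 (82.6%) held the core of the hypoxia response element, searched as ACGTG or GCGTG on both strands, as did 55.0% of all windows. In the glycolysis list 12 of 21 windows (57.1%) held that core, near the share of all windows. Of the glycolysis genes whose 48 h rise was larger in HepG2, PFKFB4 is shown with its match in capitals, and the window of PDK1 held none.
EGR1, chr5:138465229-138465478, plus strand: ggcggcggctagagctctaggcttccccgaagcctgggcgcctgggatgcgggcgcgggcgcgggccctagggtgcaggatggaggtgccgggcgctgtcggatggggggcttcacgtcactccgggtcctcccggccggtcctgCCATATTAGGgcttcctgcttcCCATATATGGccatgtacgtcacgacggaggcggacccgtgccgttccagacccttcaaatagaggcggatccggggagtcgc
PFKFB4, chr3:48556804-48557053, minus strand: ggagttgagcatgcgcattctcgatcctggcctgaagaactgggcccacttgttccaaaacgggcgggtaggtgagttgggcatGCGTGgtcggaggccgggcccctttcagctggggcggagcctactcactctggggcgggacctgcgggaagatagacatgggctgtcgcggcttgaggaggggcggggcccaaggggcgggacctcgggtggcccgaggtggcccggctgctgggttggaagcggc

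The HIF targets outside glycolysis mostly rose in both lines, and for 8 of them a larger rise in APOA4-KO was called. Of 32 tested, 25 rose past the limits in APOA4-KO and 22 in HepG2, with median changes of 1.68 and 1.25. For the difference, 8 were called higher and 1 lower (28.1%), with a median of 0.47, and all 8 of those higher were in the class that rose in both lines and more in APOA4-KO. At an adjusted p below 0.05 alone, 24 of the 32 had a higher and 5 a lower response in APOA4-KO. Over all 19743 genes these numbers were 3665 and 3513. VEGFA, the growth factor of blood vessels, went from 48.7, 51.2 and 49.1 to 106, 110.5 and 111 CPM in HepG2 and from 58.7, 62.3 and 57.2 to 386, 382 and 371 in APOA4-KO. The 48 h libraries lay above the 0 h libraries in both, and those of APOA4-KO above those of HepG2 (difference 1.54 ± 0.05 (SE), adjusted p = 3.40e-14).

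Among the others called higher, EGLN3, a prolyl hydroxylase that marks HIF for destruction, differed by 1.40, MXI1, an antagonist of MYC, 1.381, and ANKRD37 1.65 with 35.2% of its exon bases shared. ADM, the vasodilator adrenomedullin, BHLHE40, a clock repressor, and HILPDA, a lipid droplet protein, differed by 1.15, 1.25 and 1.16. HMOX1, which breaks down heme, was the member called lower: it had log2 changes of 0.18 in HepG2 and -0.88 in APOA4-KO, where it went from 46.9, 49.8 and 46.8 to 25.02, 26.3 and 26.5 CPM.

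Glycolysis and glucose uptake, in contrast, had 1 gene called higher and 2 lower of 22 (13.6%). Rises past the limits were seen for 12 of them in APOA4-KO and 10 in HepG2, with medians of 1.05 and 0.85, and the median difference of 0.13 became -0.04 with library size alone and with FPKM. The 2 called lower rose more in HepG2 by 48 h. PFKFB4, which sets the level of the sugar phosphate that activates glycolysis, went from 55.0, 52.4 and 55.8 to 395, 394 and 397 CPM in HepG2 and from 116, 112 and 110.1 to 319.9, 335 and 331 in APOA4-KO. APOA4-KO started above HepG2 and ended below it, with a difference of -1.32 ± 0.04 (SE) (adjusted p = 6.36e-15). At 24 h PFKFB4 stood at 117, 116 and 116 CPM in HepG2 and at 317, 317 and 326 in APOA4-KO.

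PDK1, the kinase that keeps pyruvate out of mitochondria, had the same shape, from 16.9, 16.9 and 15.7 to 88.2, 81.2 and 86.5 CPM in HepG2 and from 24.6, 27.005 and 28.2 to 66.0, 69.1 and 61.9 in APOA4-KO (difference -1.07). At 24 h PDK1 stood at 33.7, 34.8 and 33.2 CPM in HepG2. In APOA4-KO it was at 89.5, 89.2 and 88.5 at 24 h, above its 48 h libraries. For PFKFB4 and PDK1 the larger rise in HepG2 therefore holds for 48 h. HK1, a hexokinase, was the one called higher: it rose by 1.35 in APOA4-KO, its HepG2 value was -0.34, and its 48 h libraries in APOA4-KO were at 14.9, 15.1 and 17.2 CPM.

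Of the 14 genes that changed more in HepG2, 11 had a lower response in APOA4-KO. HAVCR1, a membrane receptor known as a marker of kidney injury, went from 1.64, 1.62 and 2.14 to 8.02, 8.13 and 6.72 CPM in HepG2 and from 3.62, 3.21 and 2.27 to 4.97, 4.06 and 6.12 in APOA4-KO, a difference of -1.35. RIMKLA, a ligase that makes N-acetylaspartylglutamate, and the noncoding LINC02348 differed by -1.16 and -1.24, each with a start at 0 h above HepG2 in APOA4-KO, by 1.48 and 0.80 on the log2 scale. At 24 h they stood in APOA4-KO at 24.1, 25.4 and 27.7 and at 14.3, 14.8 and 14.2 CPM. Those values were above their 48 h libraries there, at 12.8, 11.3 and 11.1 and at 8.07, 8.41 and 9.53. In HepG2 the 24 h libraries were at 4.20, 3.90 and 4.41 and at 5.72, 5.00 and 5.41. Of the 71 genes that changed in HepG2 only, 3 met the limits for naming, of which APOA4 is given above. TMEM200A, a membrane protein, went from 4.99, 3.27 and 3.78 to 11.8, 9.95 and 10.97 CPM in HepG2 and stayed between 1.36 and 1.76 in all 6 APOA4-KO libraries (difference -1.49 ± 0.30 (SE), adjusted p = 6.03e-04). CTH, the cystathionine lyase that makes cysteine, fell from 8.32, 7.73 and 7.18 to 4.68, 3.35 and 4.25 CPM in HepG2, whereas the APOA4-KO libraries read 6.21, 6.37 and 6.09 at the start and 6.93, 8.66 and 6.80 after 48 h, a change with an adjusted p of 0.0957 although the groups did not overlap (difference 1.18).

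The messenger RNAs of the mitochondrial genome, which encode core subunits of the respiratory chain, fell in both lines and more in APOA4-KO. All 13 genes fell in both lines at an adjusted p below 0.05. Over all genes, 49.9% in APOA4-KO and 27.7% in HepG2 changed at that p in either direction. The median change of the list was -1.58 in APOA4-KO and -0.51 in HepG2. For the difference 7 of 13 were called lower (53.8%), with a median of -1.07. MT-CO3, a subunit of cytochrome oxidase, went from 7737, 7951 and 7940.5 to 5103, 4771 and 5110.0 CPM in HepG2 and from 8743, 9332 and 9238 to 2056, 1997 and 1873 in APOA4-KO (difference -1.55 ± 0.05 (SE), adjusted p = 9.01e-15). MT-CYB, of the cytochrome bc1 complex, and MT-ND1, of complex I, differed by -1.48 and -1.37, while MT-ATP8 differed by -1.22 with 22.2% of its bases shared with MT-ATP6. At the other end, MT-CO1 differed by 0.06 and MT-ND4 -0.03, so genes read from the same mitochondrial strand differed in how far they fell.

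The share of all counts on mitochondrial genes went from between 9.01% and 9.31% in APOA4-KO at 0 h to between 5.17% and 5.19% at 48 h, and from between 8.22% and 8.48% to between 6.495% and 6.67% in HepG2. At 24 h the list's median difference was -0.98 and 6 were called, on the same 0 h libraries. The 76 nuclear subunits of the respiratory chain had a median difference of -0.20 and 1 gene called, lower (1.32%). That gene, NDUFB2, differed by -1.11 with 35.9% of its exon bases shared, and -0.97, uncalled, without the third APOA4-KO library at 48 h. Of the 77 cytosolic ribosomal protein genes, 0 were called by edgeR or by DESeq2. In edgeR 39 of them had an unadjusted p below 0.05, as did 8475 of all 19743 genes. The median of 0.12 became -0.05 with library size alone and with FPKM. RPS2 and RPLP0, the most abundant of them, differed by 0.13 and -0.17; 25.6% of the exon bases of RPS2 are shared, and its value was -0.04 in both of those settings.

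Lipid genes, which the study followed in these cells, mostly differed by less than the limit. Of 35 genes of PPAR signaling and fatty acid oxidation, 3 were called, all higher (8.57%, near the 7.42% of all genes), with a median difference of 0.23. That median was 0.06 with library size alone and -0.05 with FPKM, and it depended on single libraries: it was 0.01 without the first and 0.07 without the second HepG2 library at 48 h, 0.11 without the second and 0.09 without the third HepG2 library at 0 h, 0.09 without the first APOA4-KO library at 0 h and 0.12 without the third at 48 h. The 3 were PCK1, given above, PPARG and VNN1. PPARG, the nuclear receptor that drives fat storage, rose from 9.53, 8.13 and 9.48 to 12.9, 11.7 and 11.2 CPM in HepG2 and from 11.9, 13.95 and 13.4 to 45.3, 45.2 and 45.5 in APOA4-KO, without overlap in either (difference 1.39 ± 0.12 (SE), adjusted p = 3.34e-08). VNN1, a pantetheinase, was under 6 CPM and differed by 2.31.

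CPT1A, which takes fatty acids into mitochondria, lay at the limit. It was at 178, 177 and 176 CPM in HepG2 at 0 h and 217, 217 and 214 at 48 h, and went from 110.0, 110.2 and 114 to 263, 265 and 285 in APOA4-KO, so the edited line began below HepG2 and ended above it. Its difference of 0.99 ± 0.04 (SE) was just short of 1 and reached 1.02 with RLE scaling or DESeq2, 1.03 with the 12 libraries alone and 1.001 to 1.02 without any of 4 single libraries. ANGPTL4, an inhibitor of lipoprotein lipase, rose in both lines, by 1.71 and 2.69, with a difference of 0.99 ± 0.09 (SE) that was 1.01 with RLE scaling and 1.08 without the first HepG2 library at 0 h.

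PLIN2, the coat protein of lipid droplets, rose from 183, 178 and 191 to 508, 507 and 507 CPM in HepG2 and from 256, 245 and 251 to 1112, 1132 and 1111 in APOA4-KO, with a difference of 0.69 ± 0.03 (SE) (adjusted p = 2.81e-12). The acyl-CoA synthetases ACSL4 and ACSL5 differed by 0.65 and 0.93, and ACSL1 differed by -0.02 (adjusted p = 0.902). PPARA, the receptor that drives fatty acid oxidation, differed by 0.50. The peroxisomal oxidases ACOX2 and ACOX3 differed by -0.17 and -0.16, with adjusted p of 0.0963 and 0.0768, and ACAA1, a thiolase, differed by -0.30 with 21.2% of its exon bases shared. For the transport genes, SLC27A4 differed by -0.17 (adjusted p = 0.0767), PLTP 0.09 (adjusted p = 0.425) and APOA1 -0.24 (adjusted p = 1.77e-04).

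APOA4 was the 1 gene called among 18 of lipoprotein assembly (5.56%; median difference -0.03). Over 23 genes of cholesterol synthesis and uptake the median difference was -0.24.

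In the insulin-like growth factor axis, 2 of 16 genes were called, both higher (12.5%; median difference 0.76). IGFBP3, which binds these factors in plasma, went from 3.85, 3.41 and 3.89 to 5.98, 6.61 and 6.35 CPM in HepG2 and from 7.47, 6.18 and 6.62 to 195, 196 and 193 in APOA4-KO. Both lines rose without overlap, 1.70-fold and 28.8-fold, and the difference was 4.09 ± 0.11 (SE) (adjusted p = 1.67e-15). IRS1, the adaptor below the insulin receptor, had log2 changes of -0.35 in HepG2 and 1.11 in APOA4-KO, opposite changes that both passed 0.05.

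Genes of protein folding stress in the endoplasmic reticulum and of ATF4 did not move as a block: of 30, 3 were called higher and 2 lower (16.7%), and the median difference of 0.01 became -0.16 with library size alone and with FPKM. The chaperone cofactors SDF2L1 and CRELD2 fell in APOA4-KO, with -1.44 and -1.53 and differences of -1.39 and -1.379. PPP1R15A, which restarts translation after stress, differed by 1.83, and ASNS, asparagine synthetase, had log2 changes of 0.65 in APOA4-KO and -0.85 in HepG2, with 44.6% of its exon bases shared. CEBPB, given above, was the remaining gene.

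Liver identity genes moved in part. Among 22 hepatocyte transcription factors, 4 were called higher (18.2%; median difference 0.58). TBX3, a T-box repressor, went from 69.5, 71.8 and 73.9 to 61.0, 56.4 and 62.2 CPM in HepG2 and from 59.5, 60.4 and 61.9 to 149.7, 149.7 and 151 in APOA4-KO, in opposite directions without overlap (difference 1.57). RORA, a nuclear receptor, rose in both, by 1.24 and 2.44. FOXA2 differed by 1.04, and its call was lost without any of 4 libraries (0.83 and 0.87 without the first APOA4-KO library at 48 h and at 0 h, 0.89 without the first HepG2 library at 48 h and 0.97 without the second at 0 h). CEBPB was the other. Of 35 secreted plasma protein genes, 1 was called (2.86%; median 0.20): PLG, plasminogen, was under 0.4 CPM in HepG2, and its difference of 2.42 was uncalled at 1.82 without the first and at 1.88 without the second HepG2 library at 48 h, which both held no count, and at 2.23 without the third at 0 h. Without the third HepG2 library at 48 h no count was left in that group, so the fitted 7.75 has no upper limit and is not a measure of size.

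Among 40 genes of drug metabolism and bile acids, 1 was called higher and 4 lower (12.5%). The median difference of -0.39 was -0.24 without the second APOA4-KO library at 0 h, -0.26 without the first HepG2 library at 48 h and -0.11 with FPKM. GSTA1, a glutathione transferase, fell from 76.3, 78.9 and 80.4 to 43.8, 48.5 and 49.2 CPM in HepG2 and from 39.5, 38.8 and 37.7 to 5.36, 4.75 and 5.33 in APOA4-KO, without overlap in either (difference -2.18 ± 0.10 (SE), adjusted p = 6.31e-12). Its neighbour in sequence, GSTA2, differed by -3.02 from under 8 CPM; reads can be split between such near copies, so both values are uncertain in that respect. CYP3A5, a drug oxidase, and CYP8B1, which sets the hydroxylation of bile acids, fell in APOA4-KO, with -1.12 and -1.35. CYP1A1, an oxidase induced through the aryl hydrocarbon receptor, had log2 changes of 0.65 there and -0.57 in HepG2.

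Of 30 oxygen-dependent dioxygenases, enzymes that need oxygen as a substrate, 3 were called, all higher (10%; median difference 0.38). KDM7A, a histone demethylase, went from 10.7, 11.7 and 10.7 to 18.8, 19.9 and 19.4 CPM in HepG2 and from 13.5, 16.3 and 13.7 to 109.7, 109.9 and 109.03 in APOA4-KO (difference 2.105 ± 0.08 (SE), adjusted p = 6.73e-13). KDM6B, which removes the repressive mark on lysine 27 of histone H3, had log2 changes of -0.24 in HepG2 and 1.29 in APOA4-KO. The third was EGLN3.

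Laminins, collagens and integrins gave 3 of 35 called, all lower (8.57%), while the list's median of 0.15 was positive and became -0.02 with library size alone and -0.01 with FPKM; it was 0.10 without the first APOA4-KO library at 0 h and 0.09 without the third at 48 h. ITGB3 differed by -2.13 with 51.6% of its exon bases shared, and the calls of ITGA5 (-1.84, range -2.01 to -1.63 over the 12 fits with a library left out) and LAMA3 (-1.07, range -1.54 to -0.82) were lost in 10 and 7 of these fits. ITGA5 went from 25.6, 26.1 and 26.3 to 6.37, 6.96 and 3.95 CPM in APOA4-KO. Its 24 h libraries there, which entered the shared spread, were at 29.7, 4.01 and 5.72. With the 12 libraries alone the ITGA5 call was kept. In the BCL2 and IAP families of cell death regulators, 3 were called higher and 1 lower of 27 (14.8%). The median of -0.09 was -0.18 and -0.20 without the first or second HepG2 library at 0 h and -0.20 without the third at 48 h, and 0.01 with the 12 libraries alone. MCL1, a survival protein, went from 111, 109.9 and 109.4 to 263, 271 and 265 CPM in APOA4-KO and differed by 1.14, which was 0.97 with library size alone. BBC3 and PMAIP1, both death-promoting, differed by 1.18 and -1.90, and BIRC7, an inhibitor of apoptosis, differed by 2.87 with 48 h means of 1.59 CPM in HepG2 and 8.50 in APOA4-KO. The antioxidant and iron genes gave HAMP higher and HMOX1 lower, 2 of 30 (6.67%; median -0.02).

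Some of the largest differences fell outside every list. ROBO4, a guidance receptor known from endothelium, was at 1.43, 1.15 and 1.19 CPM in HepG2 at 0 h, 1.14, 0.510 and 0.474 at 48 h, and went from 4.997, 6.87 and 5.29 to 38.3, 37.7 and 37.9 in APOA4-KO. The APOA4-KO libraries at 48 h stood apart, with a difference of 3.55 ± 0.31 (SE) (adjusted p = 3.02e-08), while the 6 endothelial markers summed to 8.02 to 10.5 CPM in those libraries and to 14.7 to 17.5 at 0 h. RBM24, an RNA-binding splicing regulator, rose from 1.62, 2.30 and 1.97 to 19.05, 21.5 and 19.6 CPM in APOA4-KO, and its HepG2 libraries lay between 2.62 and 3.74 at 0 h and 48 h (difference 3.52 ± 0.18 (SE), adjusted p = 1.89e-11). At 24 h RBM24 was higher in HepG2, at 7.05, 7.19 and 6.79 CPM, and stood at 5.80, 5.57 and 5.97 in APOA4-KO. PTAFR, the receptor for platelet-activating factor, and NYAP1, an adaptor of phosphoinositide 3-kinase, rose in both lines with differences of 2.69 and 2.82. The HepG2 libraries of NYAP1 overlapped, at 0.700, 0.835 and 0.482 CPM at 0 h and 1.49, 0.819 and 1.07 at 48 h. On the lower side, IFI27, an interferon-induced gene, fell from 6.78, 6.70 and 8.04 to 0.861, 0.897 and 0.765 CPM in APOA4-KO, overlapping the HepG2 libraries at 48 h (1.30, 1.22 and 0.827), and differed by -2.33, while the noncoding LINC02323 differed by -2.34.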

How the data were processed

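Total RNA from both lines was enriched for poly(A) RNA and made into strand-marking (dUTP) libraries, per the labels. According to the study's methods, the authors cleaned reads with fastp 0.23.1, aligned them with HISAT2 2.1.0 to GRCh38.p13 (Ensembl release 109) and counted genes with featureCounts of subread 2.0.2; the submitters' processing notes also name StringTie. The strand setting of the counting is not given in the sources used here. The deposited gene counts are whole numbers without normalization, and the deposited FPKM values, scaled by the authors for gene length and depth, served as an alternative only.

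Genes without enough counts were removed (filterByExpr), and TMM factors and a quasi-likelihood negative binomial model were fitted with edgeR 4.0.16 over all 18 libraries, 1 coefficient per group, without covariates. The main contrast was the change from 0 h to 48 h in APOA4-KO minus that in HepG2, and both within-line changes came from the same fit. P-values were adjusted by the Benjamini-Hochberg method over 19743 genes. CPM values are scaled by the TMM-adjusted library size, except the marker sums, which are scaled by the total count alone. The members and gene lists were chosen with earlier results of these data known, so a list is described by its counts and median without a test.

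Named genes were the 8 largest called differences each way with at least 500 mean counts, at least 10 counts in each of 12 libraries and a call kept in every fit leaving out a library; the 5 largest per class; up to 5 called members per list with at least 100 mean counts, or the 2 most abundant where none was called; APOA4 and EPO; and listed genes that the paper names. FOXO3, CCN2, EGR1, EGR2, JUN, MYC, IL6R, SAA4, ADM, BHLHE40, HILPDA, E2F2, CD68, LUM, LYZ and the further replication and mitochondrial genes were added after their values were seen. Some genes that the rule names are not reported here. Shared exon bases came from GENCODE release 29 (GRCh38), which had an entry for 19181 of the tested genes, and 17412 had a symbol.

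Alternatives were library size or RLE scaling, DESeq2 1.42.0, no filter on low counts, the 12 libraries alone, a replicate block, limma 3.58.1 on log2(FPKM + 1), a test against 1.5-fold (glmTreat) and leaving out each of 12 libraries. PCR copies were not marked, so depth covers counting error only. Chi-square values of 12.4 to 34.0 per gene between libraries of a group showed no library deposited more than once.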

Additional observations from a re-analysis of the deposited data

Results flagged for a closer look

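The number of genes whose 48 h response differed between the lines, by a test of that difference, was 1464, and 207 of these changed in opposite directions. Among the genes with opposite changes that met the limits for naming, the 5 largest log2 differences were 4.53 for PCK1, 3.55 for ROBO4, 3.40 for PIM1, 3.39 for CCN1 and -3.32 for FAM111B. Each came from the same edgeR fit with Benjamini-Hochberg adjustment. The changes of HepG2 in these genes were -1.54, -0.82, -0.32, -0.26 and 0.68 in the same order, so PCK1 was the one of the 5 in which HepG2 also moved by at least 1. At 24 h the HepG2 means of ROBO4, PIM1 and CCN1 were above those at 0 h, at 2.82, 92.7 and 65.5 CPM against 1.26, 53.6 and 24.0. Those of PCK1 and FAM111B were below, at 1.70 and 4.51 against 2.58 and 5.75. The opposite directions therefore hold for 48 h.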

How the results depend on the processing

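The genes with a higher response numbered 677, and with RLE scaling, DESeq2, no filter, the 12 libraries alone or a test against 1.5-fold they numbered 721, 771, 659, 722 and 835; those lower numbered 787, and 735, 819, 676, 727 and 665. With library size alone those lower rose to 1206. With limma on log2(FPKM + 1), where the added 1 shrinks the changes of low genes, 178 were higher and 236 lower, 201 changed in APOA4-KO only, 6 in HepG2 only, 125 in both lines to different extents and 77 in opposite directions, and the within-line changes numbered 666 in APOA4-KO and 76 in HepG2. Leaving out 1 library gave 654 to 689 higher, 714 to 818 lower, 826 to 893 in APOA4-KO only, 62 to 82 in HepG2 only, 212 to 258 in both and 178 to 207 opposite, with within-line changes of 2249 to 2424 in APOA4-KO and 385 to 434 in HepG2. For the 96 named genes, 1740 values stayed on their side of the limits, 68 lost and 14 gained the call, and RPS2 reversed to -0.0418 with library size alone and to -0.0427 with FPKM. Of the list medians not given with other settings in the report, FPKM gave 1.01 for the immediate early genes, 0.43 for the insulin-like growth factor axis, 0.27 for hepatocyte transcription factors, 0.14 for gluconeogenesis, 0.18 for dioxygenases, 0.01 for plasma proteins, -0.40 for cholesterol genes and -0.33 for the nuclear respiratory chain. Library size alone gave 0.29 for the HIF targets outside glycolysis, 0.21 for gluconeogenesis and for dioxygenases, 0.03 for plasma proteins, -0.41 for cholesterol genes and -0.37 for the nuclear respiratory chain. The medians of the lipoprotein and the antioxidant lists were near 0, and leaving out 1 library gave -0.05 to 0.0046 and -0.03 to 0.02.

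The labels give the groups the same replicate numbers, but nothing says that a number marks a shared culture or day. The deviations of same-numbered libraries correlated at -0.24 to 0.13 (median -0.02), and those of other pairs at -0.23 to 0.24 (median 0.02). With 3 libraries in a group, these values cannot tell whether same-numbered libraries shared a culture or day. A replicate block gave 658 higher and 760 lower, with 841, 66, 245 and 204 genes in the 4 classes (APOA4-KO only, HepG2 only, both, opposite), and 2345 and 403 within-line changes. It moved the median difference of the interleukin-6 and STAT3 list from 0.44 to 0.16.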
